A study of Mus musculus with 12 samples.

Results

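The C/EBP transcription factors were followed as 4 genes, Cebpa, Cebpb, Cebpd and Cebpg, matched by symbol among the 54178 gene entries of the count table. All 4 had enough reads to be among the 15226 genes tested. RNA came from mouse whole hearts, in 4 groups of 3 libraries with 17465432 to 20467300 counts each. Flox mice carried loxP-flanked Cited4 alleles on both chromosomes. KO mice carried the same floxed alleles and a cre transgene driven by the cardiomyocyte aMHC promoter, so the deletion is aimed at cardiomyocytes and other cells of the heart keep the gene. No group had cre with intact Cited4 alleles, and the KO label therefore stands for the deletion and the transgene together. Mice of each genotype were labelled sedentary or labelled exercise, the latter for voluntary running on a wheel, over 8 weeks. The labels give no age or sex and do not say which animal gave which library, and the p-values below therefore rest on the spread among these libraries, which may be technical in part.

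The treatment words of the sample titles go against a letter in their bracketed codes, where E stands beside sedentary and S beside exercise. Groups follow the words. Should the codes hold instead, every exercise difference and the interaction would turn its sign, the KO against Flox results of the 2 treatment labels would swap, and the genotype average would not be affected.

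C/EBP proteins are basic leucine zipper factors that bind DNA as pairs, with themselves, with each other or with relatives such as ATF4. C/EBP-beta and C/EBP-delta are induced early by hormones and inflammatory signals, C/EBP-alpha follows during the maturation of fat cells, liver cells and myeloid cells, and C/EBP-gamma lacks a strong activating region and serves mainly as a partner. In the heart C/EBP-beta is known from work on exercise, where its level goes down and that of the co-regulator CITED4 goes up as cardiomyocytes grow. The comparisons below ask how the family stood in hearts with and without Cited4 under both treatment labels.

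The family members sit at separate sites with different promoters. In the GENCODE M21 annotation of GRCm38, Cebpa occupies positions 35119293 to 35121928 of chromosome 7, forward. Cebpg, on the reverse strand of the same chromosome, runs from 35046422 to 35056573, and their starts are 62720 bases apart and point away from each other. Cebpb occupies 167688915 to 167690418 on chromosome 2, forward, and Cebpd 15887286 to 15891031 on chromosome 16, forward. The 250 bases before the start were read from RefSeq (GRCm38.p6) for the 3 members its promoter table holds, because the members differ there in the short elements that their known regulators bind. Capitals mark matches on the gene's strand to the C/EBP half-site TTGCG and the TATA box TATAAA in Cebpa and to the CRE half-site TGACG, or its reverse complement, in Cebpb.
Cebpa, chr7:35119043-35119292, forward strand: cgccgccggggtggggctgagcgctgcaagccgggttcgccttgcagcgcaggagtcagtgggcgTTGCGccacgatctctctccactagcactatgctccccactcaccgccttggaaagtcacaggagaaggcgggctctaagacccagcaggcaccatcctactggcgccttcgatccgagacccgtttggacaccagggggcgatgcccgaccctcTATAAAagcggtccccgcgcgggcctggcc
Cebpb, chr2:167688665-167688914, forward strand: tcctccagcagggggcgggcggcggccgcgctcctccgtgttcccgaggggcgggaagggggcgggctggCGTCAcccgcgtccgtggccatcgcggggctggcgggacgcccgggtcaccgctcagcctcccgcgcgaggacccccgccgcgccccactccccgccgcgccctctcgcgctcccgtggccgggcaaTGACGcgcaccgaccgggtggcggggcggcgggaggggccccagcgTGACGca
Cebpg, chr7:35056567-35056816, reverse strand: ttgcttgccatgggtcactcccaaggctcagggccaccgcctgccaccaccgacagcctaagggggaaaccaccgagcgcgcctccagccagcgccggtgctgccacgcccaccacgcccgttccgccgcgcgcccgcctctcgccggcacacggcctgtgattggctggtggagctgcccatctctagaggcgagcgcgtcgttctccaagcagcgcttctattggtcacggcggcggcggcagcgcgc

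Motifs were searched on both strands. The Cebpa window held TTGCG at -185 and TATAAA at -30, counted from the base before the start as -1. The Cebpb window held TGACG at -180 on the reverse strand and at -53 and -7 on the forward strand. The Cebpg window held CCAAT, left in lower case above, at -89 and -28 on the reverse strand. The longer and looser pattern TTNNGNAA, which can overlap TTGCG, matched none of these windows. Among 32851 RefSeq promoter windows of the same length, 17.77% held TGACG, 14.52% TTGCG, 12.37% TATAAA, 33.85% CCAAT and 36.85% TTNNGNAA, so each single match is a common one. GC content was 66.4% for Cebpa, 81.6% for Cebpb and 70.8% for Cebpg, against a median of 52.4% over these windows. A match describes the letters only.

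The deletion was visible in the target gene. Cited4 stood at 16.3, 10.1 and 14.9 CPM (counts scaled by TMM to a common library size) in Flox labelled sedentary and at 23.1, 13.7 and 23.9 in Flox labelled exercise. No KO library exceeded 0.241 CPM. The 12 ventricular cardiomyocyte markers summed to between 59035 and 86934 CPM. Markers of other cells varied between libraries. The mean of 15 atrial cardiomyocyte markers ran from 1.68 to 7.77 log2 CPM, with the 3 KO labelled sedentary libraries at 5.25, 7.19 and 7.77. Flox labelled sedentary 3, Flox labelled exercise 2, KO labelled exercise 1 and KO labelled exercise 3 were also above 5, and the other 5 libraries were at 2.67 or lower. The mean of 17 adipocyte markers was 4.98 to 5.39 in KO labelled sedentary and 2.19 to 3.66 in the other 9 libraries. Its members went both ways, with 10 above and 7 below 0 for KO under the sedentary label. Their summed level was lowest in that group, at 4650 to 5424 CPM against 5461 to 7400 elsewhere. The largest part of that sum was Lpl, a lipase that cardiomyocytes also make, at 3608 ± 450.1 CPM there and 5078 ± 239.3 in Flox labelled sedentary. In whole-heart RNA, more cells of a type and more RNA per cell cannot be told apart.

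Relative to the length of the annotated exons, Cebpb was the most abundant member. Over the union of its exons it averaged 18.7 CPM per kilobase across the 12 libraries, against 4.94 for Cebpg, 4.82 for Cebpd and 3.91 for Cebpa. Cebpb was the highest of the 4 in 12 of 12 libraries. With RefSeq lengths, Cebpb stood at 18.5, Cebpd at 7.99 and Cebpa at 3.91 CPM per kilobase. Cebpg has isoforms of 399 to 4709 bases and Cebpd of 430 to 3746. This leaves their places in the order uncertain, and with them the first place of Cebpb. Across all libraries Cebpg was also the steadiest. Its highest value was 1.39 times its lowest, whereas this ratio was 2.84 for Cebpb, 3.53 for Cebpa and 3.78 for Cebpd. Within groups the standard deviation on the log2 scale was 0.13 for Cebpg, 0.29 for Cebpa, 0.45 for Cebpb and 0.53 for Cebpd. Cebpd thus varied more between libraries of a group than 85.0% of tested genes, and Cebpg more than 16.6%.

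**Figure D1:**
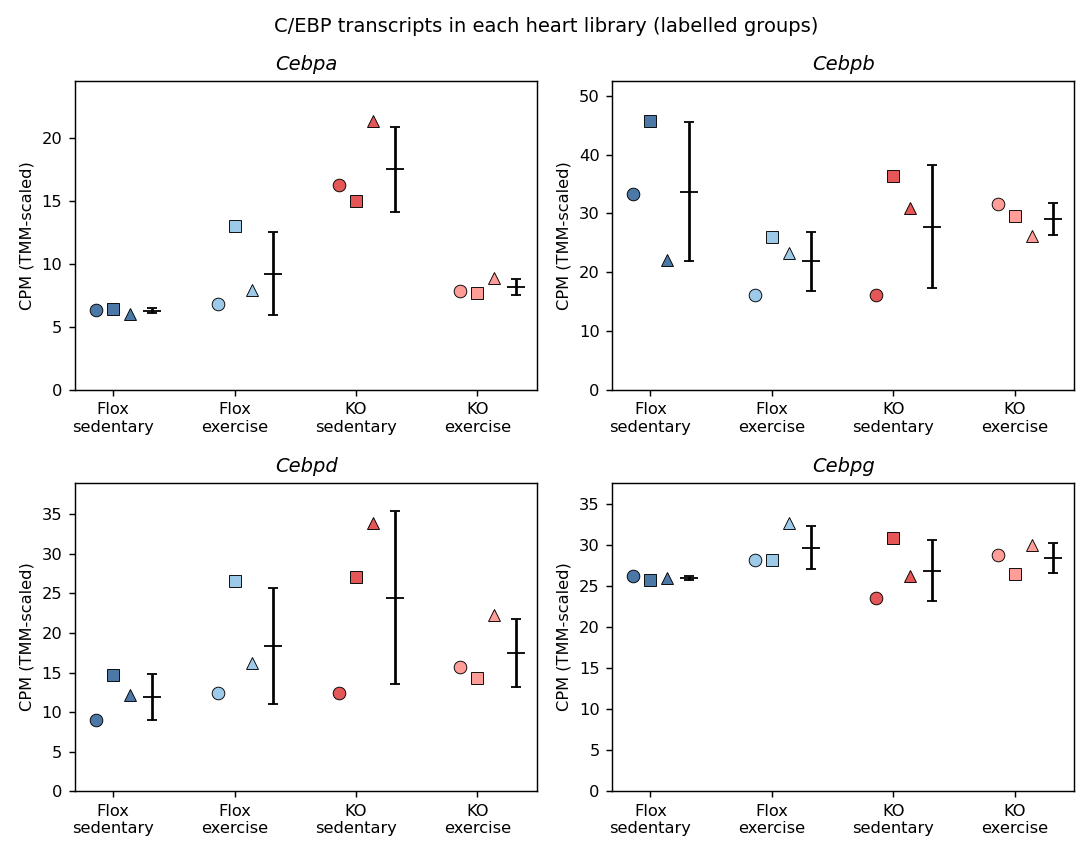
TMM-scaled CPM of Cebpa, Cebpb, Cebpd and Cebpg in each of 12 libraries by labelled group (circle, replicate 1; square, replicate 2; triangle, replicate 3), with the group mean and SD beside the points (n = 3). Cebpa is at 15.0 to 21.3 CPM in KO labelled sedentary and at or below 13.0 elsewhere, Cebpg stays between 23.5 and 32.7, and the points of Cebpb and Cebpd spread within groups.

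Cebpb, the member tied to exercise growth, had 33.3, 45.7 and 22.0 CPM in Flox labelled sedentary and 16.2, 26.0 and 23.3 in Flox labelled exercise. The ranges overlapped, since sedentary library 3 lay below exercise libraries 2 and 3. The KO libraries labelled sedentary had 16.1, 36.3 and 30.9 CPM, and those labelled exercise 31.5, 29.6 and 26.1. From low to high, the group means were 21.8 ± 5.07 for Flox labelled exercise, 27.7 ± 10.5 for KO labelled sedentary, 29.1 ± 2.74 for KO labelled exercise and 33.7 ± 11.8 for Flox labelled sedentary (SD, n = 3 each). Each neighbouring pair in that order differed by less than the larger of its SDs.

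None of the Cebpb differences passed the test. In Flox hearts the log2 difference of labelled exercise from labelled sedentary was -0.62 ± 0.32 (SE; edgeR, adjusted p = 0.700), with a 95% interval of -1.33 to 0.08. In KO hearts it was 0.07 ± 0.31. Under the exercise label the KO values lay above the Flox values in every library, by a narrow margin of 26.1 against 26.0 CPM. That difference was 0.41 ± 0.32 (adjusted p = 0.764), and the one under the sedentary label was -0.28 ± 0.31. The interaction, the exercise difference in KO minus that in Flox, was 0.69 ± 0.45 (95% interval -0.30 to 1.68). Each of these intervals includes no difference. They rest on the spread between libraries of a group, which ran from 22.0 to 45.7 CPM in Flox labelled sedentary and from 16.1 to 36.3 in KO labelled sedentary.

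The Cebpb gene shares bases with Tmem189, a gene on the opposite strand, over 312 exonic bases, and the strand setting of the counting is not given in the sources used here. Tmem189 averaged 26.6 to 31.3 CPM by group, and its log2 differences lay between 0.04 and 0.20 in the 7 comparisons. Reads of the shared stretch could belong to either gene if strand was not used.

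Cebpd, the other early member, had 8.97, 14.7 and 12.2 CPM in Flox labelled sedentary and 12.4, 26.6 and 16.2 in Flox labelled exercise. KO labelled sedentary had 12.5, 27.1 and 33.9 CPM, and KO labelled exercise 15.8, 14.3 and 22.3. The lowest group mean was 11.9 ± 2.87 in Flox labelled sedentary and the highest 24.5 ± 10.9 in KO labelled sedentary, with 17.5 ± 4.28 and 18.4 ± 7.34 in KO and Flox labelled exercise. Adjacent groups in this order overlapped. The difference of KO from Flox under the sedentary label was 1.03 ± 0.38 on the log2 scale (edgeR, adjusted p = 0.283; 95% interval 0.18 to 1.89). KO labelled sedentary 1 was within the Flox range while libraries 2 and 3 were above it. Without that library the difference was 1.33 (adjusted p = 0.0549), and with the atrial marker mean as covariate it was 0.33 ± 0.41. Over all alternatives the adjusted p ran from 0.0549 to 0.9999. The exercise difference was 0.62 ± 0.39 in Flox, or 0.25 without Flox labelled exercise 2. It was -0.49 ± 0.38 in KO, and the interaction was -1.11 ± 0.54 (adjusted p = 0.516). Cebpd counts were not whole numbers in any of the 12 libraries, whereas those of Cebpa, also with 2 annotated transcripts, were whole in each. Salmon gives fractions where reads are split between transcripts. Counts per gene do not show whether those transcripts belong to 1 gene or to several. On the opposite strand Spidr shares 562 exonic bases with it, at 2.39 to 3.06 CPM by group.

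Cebpa, the factor of fat cell, liver and myeloid maturation, was the single member that passed a test. Flox labelled sedentary held 6.31, 6.45 and 6.05 CPM and KO labelled sedentary 16.2, 15.0 and 21.3. KO labelled exercise held 7.88, 7.69 and 8.90, and Flox labelled exercise 6.78, 13.0 and 7.92. Every KO labelled sedentary library was above all 9 others, and Flox labelled exercise 2 was the next highest. The group means were 6.27 ± 0.204, 8.15 ± 0.651, 9.24 ± 3.33 and 17.5 ± 3.37 CPM for Flox labelled sedentary, KO labelled exercise, Flox labelled exercise and KO labelled sedentary (SD, n = 3 each). The middle pair differed by less than the SD of the Flox libraries. These values rest on 107 to 468 counts per library.

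Under the sedentary label Cebpa rose 2.79-fold in KO, a log2 difference of 1.48 ± 0.21 (SE; edgeR, adjusted p = 0.0158; 95% interval 1.02 to 1.94). Markers of several cell types differed in the same comparison. Above 0 were 14 of 15 atrial, 10 of 10 fibroblast, 13 of 13 macrophage and 6 of 8 smooth muscle markers, with median log2 differences of 2.33, 0.69, 0.47 and 1.04, and 0 of 12 ventricular markers (median -0.34). Of these 1 smooth muscle marker was called, and 4 of 17 adipocyte markers. Their part in the Cebpa value was not tested. The adipocyte mean was higher in every KO labelled sedentary library (4.98 to 5.39) than in all other libraries (2.19 to 3.66). A fit with that mean as covariate therefore cannot separate it from the group. The atrial mean overlapped in part, at 5.25 to 7.77 in that group and 1.68 to 6.07 elsewhere. Cebpa ranked ninth by p among all tested genes, of which 0.125% were called. Its library values did not overlap between the groups, as did those of 18.4% of all tested genes and of no other member. The call was lost when any 1 of the 3 Flox labelled sedentary libraries was left out (adjusted p = 0.0761, 0.120 and 0.0839 for replicates 1, 2 and 3). It was also lost when KO labelled sedentary 3 was left out (difference 1.31, adjusted p = 0.0789). Leaving out any of the other 8 kept it, and the difference stayed between 1.31 and 1.57. Over all alternatives its adjusted p ran from 8.66e-07 with DESeq2 to 0.506 with the mean of the atrial markers as covariate.

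The Cebpa difference between genotypes was not seen under the exercise label. There it was -0.18 ± 0.21 (adjusted p = 0.837), a 95% interval of -0.64 to 0.28, and 0.16 without Flox labelled exercise 2. Within KO hearts the labelled exercise values were all below the labelled sedentary values, at -1.10 ± 0.21 (adjusted p = 0.109; range over alternatives 0.00238 to 0.638). Within Flox hearts they were all above, at 0.56 ± 0.22 (adjusted p = 0.593), or 0.22 without Flox labelled exercise 2. The interaction was -1.66 ± 0.30 (unadjusted p = 9.01e-05, adjusted p = 0.279). It had the fourth smallest p of all tested genes, none of which passed in edgeR. At an unadjusted p under 0.05 stood 1505, and the DESeq2 calls were 13 higher and 34 lower. DESeq2 called Cebpa for the interaction (adjusted p = 0.00217), for exercise in KO (0.00238) and for the genotype average (0.0210), which edgeR put at 0.65 ± 0.15 (adjusted p = 0.175).

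**Figure D2:**
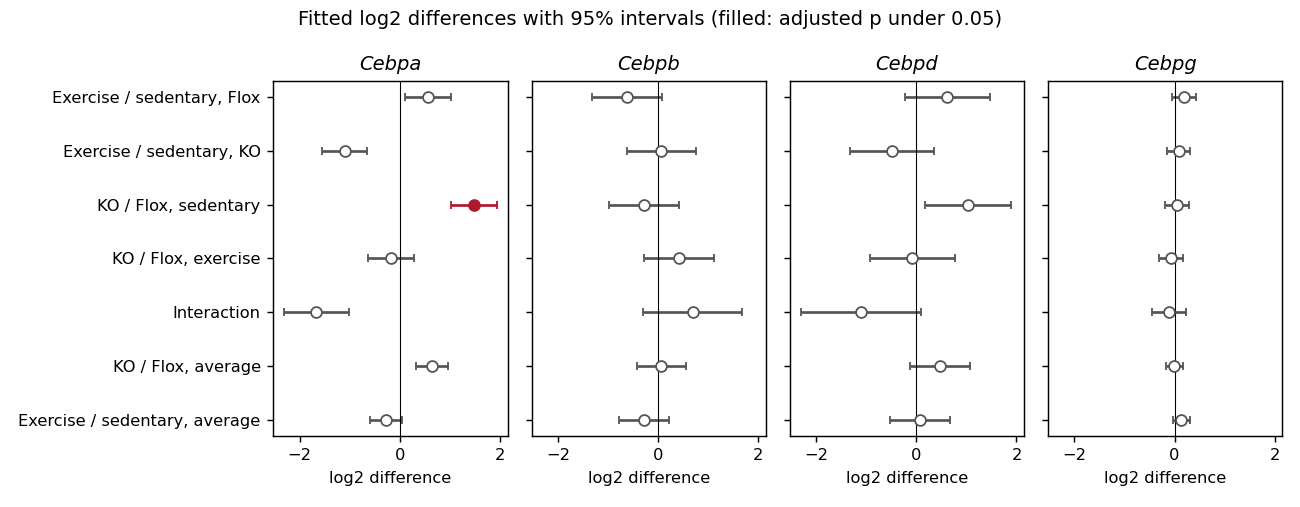
Fitted log2 differences (points) with 95% intervals (bars) for each C/EBP member in 7 comparisons from 1 edgeR fit over 12 libraries; a filled point marks an adjusted p under 0.05 over 15226 genes. The one filled point is that of Cebpa in the genotype comparison of hearts labelled sedentary, at 1.48, and all Cebpg points lie within 0.20 of 0.

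Cebpg, the partner that pairs with other zipper proteins, had 26.3, 25.8 and 26.1 CPM in Flox labelled sedentary and 28.2, 28.3 and 32.7 in Flox labelled exercise. KO labelled sedentary had 23.5, 30.9 and 26.3, and KO labelled exercise 28.8, 26.5 and 30.1. The means were 26.0 ± 0.246, 29.7 ± 2.59, 26.9 ± 3.70 and 28.4 ± 1.82 CPM in that order of groups, and the KO groups overlapped while the Flox groups did not. The largest fitted difference was 0.19 ± 0.11 on the log2 scale, for exercise in Flox (edgeR, adjusted p = 0.724; 95% interval -0.05 to 0.43). Under the sedentary label KO differed from Flox by 0.05 ± 0.11, with an interval of -0.19 to 0.28. The measurement was narrow enough to bound Cebpg within 0.45 log2 units of no difference in each of the 7 comparisons.

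Set side by side, the members gave 1 call of 28 tests. For exercise in Flox, edgeR called 0 of 4 members and 0% of all genes (1129 had an unadjusted p under 0.05, and the 14 higher and 31 lower calls of DESeq2 held no member). Cebpa had an unadjusted p of 0.0218 there. Values did not overlap for 2 members, Cebpa and Cebpg, and for 14.1% of genes. For exercise in KO, 0 of 4 members and 0.0197% of genes were called, and values did not overlap for Cebpa and for 13.1% of genes. For the genotypes under the exercise label, 0 of 4 members and 0.00657% of genes were called in edgeR, DESeq2 called no member, and no member had an unadjusted p under 0.05. Cebpb was the member whose values did not overlap there, as did those of 14.8% of genes. For the interaction the share of genes called was 0%, for the genotype average 0.0525% and for the exercise average 0.0263%, with 0 of 4 members each by edgeR. Cebpa had an unadjusted p under 0.05 for exercise in KO, the interaction and the genotype average, and no member had one for the exercise average.

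The balance of Cebpb to Cebpa, the early against the late member of fat cell maturation, is given as a ratio for each library. The ratio of Cebpb to Cebpa CPM was 5.28, 7.07 and 3.64 in Flox labelled sedentary, 2.39, 1.996 and 2.94 in Flox labelled exercise, 0.988, 2.42 and 1.45 in the KO libraries labelled sedentary, and 4, 3.85 and 2.93 in those labelled exercise. All 3 Flox labelled sedentary ratios lay above the Flox labelled exercise and KO labelled sedentary ratios. The means were 5.33 ± 1.72, 2.44 ± 0.473, 1.62 ± 0.732 and 3.59 ± 0.576 (SD, n = 3 each). CPM is not divided by length here, so the ratio compares groups and not the abundance of the transcripts. The ratio was formed after the values had been seen and is given without a test.

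**Figure D3:**
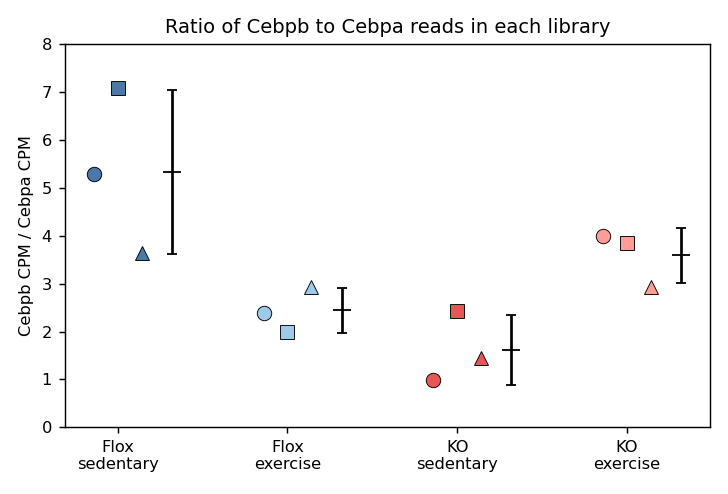
Ratio of Cebpb CPM to Cebpa CPM (vertical axis, no unit) in each of 12 libraries by labelled group (circle, replicate 1; square, replicate 2; triangle, replicate 3), with the group mean and SD (n = 3). Flox labelled sedentary spans 3.64 to 7.07 and KO labelled sedentary 0.988 to 2.42.

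Cebpa and Cebpd were correlated over the 12 libraries, group differences included, and the other pairs did not pass. Over 12 libraries Pearson's r of log2 CPM was 0.730 for Cebpa with Cebpd (permutation p = 0.00670, adjusted over 6 pairs 0.0402) and Spearman's rho was 0.769 (permutation p = 0.00488, adjusted 0.0293). The 3 KO labelled sedentary libraries stand apart in Cebpa. In the 9 libraries outside that group r was 0.889 (exact permutation, adjusted p = 0.00243), a setting chosen after the values had been seen. Without KO labelled sedentary 1 and 3, the libraries farthest from the median in Cebpa, r was 0.907. After subtraction of group means it was 0.682, a value without a test. Leaving out single libraries gave r between 0.594 and 0.926, and the adjusted p was above 0.05 (at most 0.175) for 11 of the 12, all but KO labelled sedentary 1. That library had 16.2 CPM of Cebpa with 12.5 of Cebpd, whereas libraries 2 and 3 of its group had 27.1 and 33.9 of Cebpd. For the other 5 pairs r lay between -0.0870 and 0.379, and the smallest adjusted p was 0.668.

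In the 6 Flox libraries, where Cited4 is intact, no member's relation with Cited4 passed. Which member had the lowest r depended on the treatment of group means. For Cebpb Pearson's r was -0.790 (exact permutation p = 0.0556, adjusted over 4 members 0.208) and Spearman's rho was -0.600 (exact p = 0.242, adjusted 0.483). The library with the most Cebpb, at 45.7 CPM, had the least Cited4, at 10.1 CPM. The library with the least Cebpb, at 16.2 CPM, had 23.1 CPM of Cited4. Without Flox labelled sedentary 2 and Flox labelled exercise 3, r was -0.683 over 4 libraries. Cebpg had r 0.727 (exact p = 0.104, adjusted 0.208), and Cebpa and Cebpd had -0.0387 and -0.180. Once group means were subtracted, the values were -0.904 for Cebpd, -0.779 for Cebpa, -0.653 for Cebpb and 0.478 for Cebpg. Within a treatment label there were too few libraries for a value.

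Cebpa and Cebpd also followed markers of other cells, given here as r over the same 12 libraries and as a description. Cebpd had r 0.863 with the mean of 10 cardiac fibroblast markers, 0.760 with 13 macrophage markers and -0.813 with ventricular markers. With group means subtracted these were 0.780, 0.696 and -0.820. Cebpa had r 0.811 with adipocyte, 0.768 with fibroblast, 0.754 with atrial, 0.663 with smooth muscle, 0.591 with macrophage and -0.863 with ventricular markers. With group means subtracted the adipocyte value was -0.160 and the smooth muscle value -0.178, so those relations lay between groups. The fibroblast, atrial, macrophage and ventricular values were then 0.671, 0.571, 0.763 and -0.535. With the same subtraction the neutrophil value of Cebpa went from 0.017 to 0.740 and the endothelial value from 0.141 to -0.670. Cebpb and Cebpg had r between -0.473 and 0.447 with all 8 marker means. After that subtraction Cebpb reached -0.545 with ventricular and -0.596 with smooth muscle markers, and Cebpg -0.531 with ventricular markers. The part of these cells in the Cebpa and Cebpd values was not tested. The adipocyte covariate cannot be told apart from the KO labelled sedentary group.

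Single libraries are given as examples of marker means beside Cebpa. KO labelled sedentary 1 and Flox labelled sedentary 3 had like atrial means (5.25 and 5.49 log2 CPM) and Cebpa at 16.2 and 6.05 CPM. They were not alike in other markers. The smooth muscle mean was 6.86 log2 CPM in KO labelled sedentary 1 and 5.36 in Flox labelled sedentary 3. The adipocyte mean was also higher in KO labelled sedentary 1. Which cells account for the Cebpa values of these libraries was not tested. KO labelled exercise 1, at an atrial mean of 5.71, had Cebpa at 7.88 CPM. Flox labelled exercise 2, the highest library outside KO labelled sedentary, had the highest macrophage mean of all (5.02), an atrial mean of 6.07 and an adipocyte mean of 2.63. Fitted together with the atrial mean, the Cebpa difference under the sedentary label was 1.14 ± 0.24 (adjusted p = 0.506), and with the adipocyte mean 1.80 ± 0.59 (adjusted p = 0.418). In these fits 1 and 0 of all genes were called, against 19 without a covariate. The SE of the Cebpa difference was 0.21 without a covariate. No adipocyte mean outside KO labelled sedentary reached those of that group, so the adipocyte fit cannot separate marker from group.

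**Figure D4:**
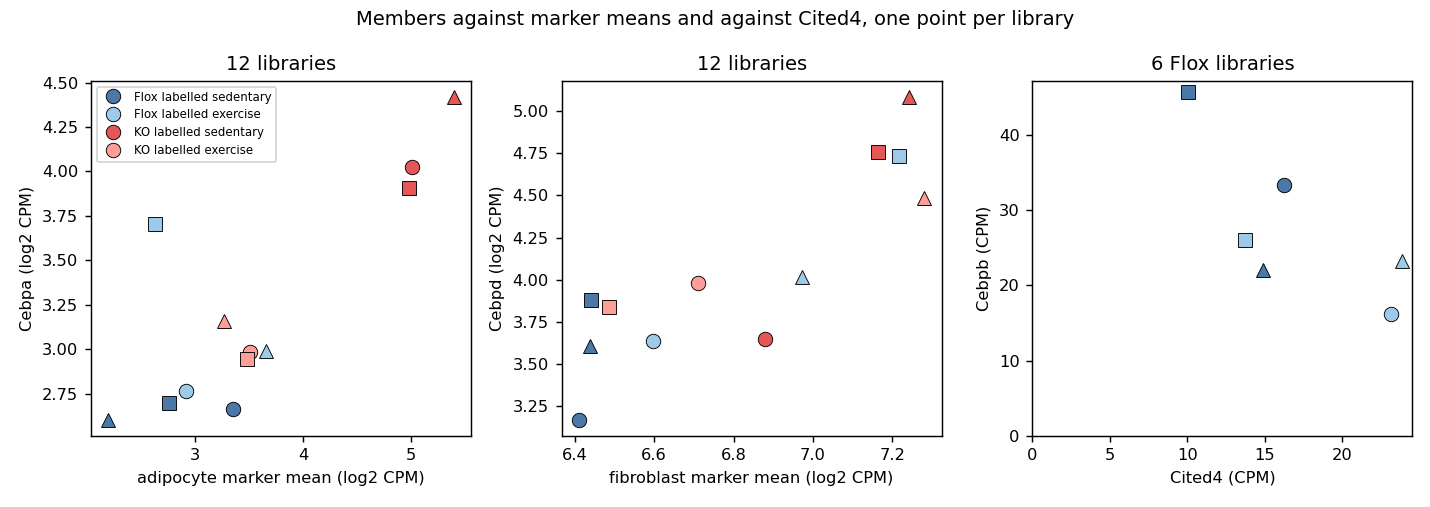
Cebpa against the mean of 17 adipocyte markers and Cebpd against the mean of 10 fibroblast markers in 12 libraries (all axes log2 CPM), and Cebpb against Cited4 in the 6 Flox libraries (both axes CPM); colours give the labelled group, and circle, square and triangle replicates 1, 2 and 3. The KO labelled sedentary points lie at the upper right of the Cebpa panel (adipocyte mean 4.98 to 5.39), Cebpd goes up along the fibroblast mean in libraries of all groups, and Cebpb is lower where Cited4 is higher, a relation that did not pass.

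Fat cell genes that carry C/EBP sites or encode partners were examined as a list of 23, of which 22 were tested. Under the sedentary label 4 rose in KO and none fell, with a median log2 difference of 0.24 against 0.00 over all genes, of which 0.125% were called. They were the adipokines Adipoq (5.40 ± 0.66, adjusted p = 0.00901) and Retn (4.65 ± 0.70, 0.0226), the lipid droplet gene Cidec (5.36 ± 0.57, 0.00370) and the desaturase Scd1 (2.72 ± 0.37, 0.0226). Retn went from 0.0540 ± 0.00447 to 1.501 ± 0.872 CPM, a level of few reads. When single libraries were left out the count became 0 (Flox labelled sedentary 2), 1 (Flox labelled sedentary 3), 2 (KO labelled sedentary 3) or 7 (KO labelled sedentary 1), and with either covariate it was 0. DESeq2 called 7 higher and 1 lower, against 243 and 127 over all genes. Pparg, the nuclear receptor that works with C/EBP-alpha in fat cells and was chosen after its values were seen, stood at 8.37 ± 0.494 CPM in KO and 9.32 ± 1.56 in Flox (-0.15 ± 0.19). In KO hearts Cidec fell under the exercise label (-3.48 ± 0.48, adjusted p = 0.0483), the one list member called there, where 0.0197% of all genes were called, and the list median was -0.22. For the genotype average Cidec rose (3.17 ± 0.40, adjusted p = 0.0108; 0.0525% of all genes called). In the other 4 comparisons 0 of 22 passed in edgeR, with 3, 2, 12 and 7 at an unadjusted p under 0.05 for exercise in Flox, KO under the exercise label, the interaction and the exercise average. Over all 15226 genes these counts were 1129, 1209, 1505 and 1287.

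Dimer partners and regulators of the family gave no call. Of 33 listed genes 32 were tested, and edgeR called 0 in each of the 7 comparisons (0% to 0.125% of all genes). At an unadjusted p under 0.05 stood 2 to 6 of them, against 1129 to 2057 of all 15226 genes. For exercise in Flox these counts were 6 and 1129. The smallest p values for exercise in Flox belonged to 3 zipper proteins of the clock output. Nfil3, a repressor, stood at 16.3 ± 5.25 CPM under the exercise label and 4.56 ± 1.45 under the sedentary label (1.85 ± 0.40, adjusted p = 0.399). Tef and Hlf, activators of the PAR family, stood at 81.3 ± 17.1 against 226.9 ± 75.6 CPM (-1.48 ± 0.35) and 13.2 ± 1.02 against 37.4 ± 17.5 CPM (-1.50 ± 0.41). DESeq2 called these 3 and Dbp, also a PAR factor, in that comparison, among 14 higher and 31 lower calls over all genes. Of the further genes followed by name, Cebpe had at most 1 count in a library and was not tested. Ddit3, which blocks C/EBP binding by pairing, averaged 15.8 to 18.8 CPM by group and Cebpz 21.8 to 23.3 CPM. Neither had an unadjusted p under 0.05 in any comparison, and DESeq2 called neither.

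Acute phase and inflammation genes, classic targets of C/EBP-beta and C/EBP-delta, had 21 tested members of 27, and edgeR called 0 in every comparison. Their median log2 difference was 0.45 for KO under the sedentary label (17 of 21 above 0; all genes, median 0.00 and 50.04% above 0) and 0.36 for exercise in Flox (17 of 21; all genes 0.01 and 51.4%). Haptoglobin, Hp, had the smallest p under the sedentary label, at 14.2 ± 5.93 CPM in KO and 0.999 ± 0.695 in Flox (3.85 ± 0.75, adjusted p = 0.0915), and DESeq2 called it. For exercise in Flox, the pentraxin Ptx3 (2.58 ± 0.69, adjusted p = 0.487) and the cytokine Il1b (2.45 ± 0.91, 0.583) led. At an unadjusted p under 0.05 stood 0 to 6 of the listed genes per comparison, against 1129 to 2057 of all 15226 genes. Macrophage markers stood high in some of the libraries high in Cebpd. Flox labelled exercise 2 held 26.6 CPM of Cebpd at a macrophage mean of 5.02 log2 CPM, the highest of all, and KO labelled exercise 3 held 22.3 CPM at 4.76. Their part in these values was not tested. Of 12 neutrophil markers 4 were tested. All 4 were above 0 for exercise in Flox and in KO, and edgeR called 0 of them. Of the markers not tested, Ngp and Elane were at 0 counts in all 12 libraries.

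Glucocorticoid targets, which share hormone control with Cebpb and Cebpd, had 14 tested members and 0 calls by edgeR in each comparison. At an unadjusted p under 0.05 stood 1 to 7 of them, against 1129 to 2057 of all 15226 genes. For exercise in Flox these counts were 7 and 1129. The median in that comparison was 0.21 against 0.01 over all genes, and the smallest p values pointed in both directions. The kinase Sgk1 was at 0.51 ± 0.12 (adjusted p = 0.399), the repressor Zbtb16 at -2.96 ± 0.64 (0.426) and the Krüppel factor Klf9 at -0.69 ± 0.17 (0.456). DESeq2 called these 3 and Ddit4 for exercise in Flox, among 14 higher and 31 lower calls over all genes. Amino acid response genes, where C/EBP-gamma pairs with ATF4, had 23 tested members of 25 and 0 calls by edgeR (2 to 8 at an unadjusted p under 0.05). Under the sedentary label 17 of 23 were above 0 in KO, with a median of 0.11 (all genes, 50.04% and 0.00). There 8 of the 23 had an unadjusted p under 0.05, as did 2057 of all 15226 genes. The serine synthesis genes Psat1 (0.88 ± 0.21, adjusted p = 0.108) and Phgdh (1.00 ± 0.25, 0.131) and the stress cytokine Gdf15 (1.62 ± 0.41, 0.129) led. DESeq2 called Psat1, Gdf15 and the stress cofactor Nupr1 under this label, among 243 higher and 127 lower calls over all genes.

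The growth programme named around C/EBP-beta in exercise had 19 tested genes. Its one edgeR call was Cited4, in the 3 genotype comparisons, where 0.00657% to 0.125% of all genes were called. Cited4 is the gene deleted in KO, so this call was fixed by the design. No other listed gene was called. Without a call, the smallest p values for exercise in Flox were those of the forkhead factor Foxo3, at 54.6 ± 2.50 CPM under the exercise label and 94.2 ± 37.6 under the sedentary label (-0.79 ± 0.21, adjusted p = 0.487), and of the kinase Akt1 (-0.25 ± 0.11, adjusted p = 0.652). Cited4 itself was at 0.56 ± 0.33 (adjusted p = 0.734). Under the sedentary label the natriuretic peptide gene Nppb was at 345.3 ± 231.2 CPM in KO and 139.9 ± 35.4 in Flox (1.30 ± 0.42, adjusted p = 0.228). DESeq2 called Cited4 and no other gene of this list in any comparison.

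Genes whose pattern over the 12 libraries was most like each member were taken from 13392 genes with an average of at least 1 CPM, by Pearson's r of log2 CPM. For Cebpd they were Tgfbi (r 0.979), a matrix protein, the sterol carrier Npc2 (0.959), the sterol esterifying enzyme Soat1 (0.957), Tram1 (0.956) and the transcription factor Foxp1 (0.942). Tgfbi stood at 15.1, 20.4 and 17.6 CPM in Flox labelled sedentary, 15.6, 41.2 and 22.8 in Flox labelled exercise, 18.7, 38.9 and 45.8 in the KO libraries labelled sedentary, and 22.7, 18.0 and 31.4 in those labelled exercise. Its high libraries were those of Cebpd. With group means subtracted the leading genes were Dynlt1f (0.976), Tgfbi (0.974) and Irf2bp2 (0.954).

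For Cebpa the nearest genes were the proton pump subunit Atp6v1h (r 0.942), the adhesion molecule Alcam (0.939), the protein kinase A subunit Prkar2b (0.930), the myosin light chain Myl9 (0.928) and the microtubule protein Map1b (0.924). Prkar2b, Myl9 and Map1b were themselves called higher in KO under the sedentary label, and the r of a gene called there reflects that group difference as well. With group means subtracted Myc (0.939), Rrbp1 (0.937) and Tpd52 (0.928) led. Myc stood at 0.855, 3.73 and 1.27 CPM in Flox labelled exercise and 2.12, 2.996 and 5.34 in KO labelled sedentary, with its highest library in each being that of Cebpa.

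Cebpb was nearest to the lipase Abhd16a (r 0.890), Nrxn2 (0.871), Xkr6 (0.862), Fer (0.855) and Gk5 (0.842). With group means subtracted Abhd16a (0.937), Tsc22d3 (0.924) and 5430431A17Rik (0.923) led. Tsc22d3, a glucocorticoid-induced regulator, stood at 48.5, 74.8 and 47.8 CPM in Flox labelled sedentary and 39.2, 91.6 and 70.7 in KO labelled sedentary, and its highest library in each was the highest for Cebpb. Cebpg had looser neighbours, Tnfrsf25 (r 0.823), Spty2d1 (0.812), 4732440D04Rik (0.799), Gt(ROSA)26Sor (0.786) and Gm45457 (0.781). After subtraction of group means the chaperone Dnajb1 (0.926), Alg11 (0.902) and Epb41l2 (0.898) led. These r values are the highest of many and share libraries and depth, so they are given without a p.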

How the data were processed

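Whole-heart RNA was depleted of ribosomal RNA before library construction, per the labels' protocols. The authors deposited 1 table of estimated counts, with a row for each gene symbol. FastQC and Salmon, and the builds mm9 and mm10, are named in the submitters' processing notes without version or role. Not given in the sources used here are the annotation release, the strand setting and how transcripts were summed to genes. Counts were rounded to whole numbers. Of 55874 entries, 1696 naming vectors, phages, adaptors or linkers (at most 0.186% of a library's counts) were left out.

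Tests used edgeR 4.0.16 (R 4.3.3): filterByExpr by group, TMM, 1 fit of 4 group means over 12 libraries, glmQLFit with robust estimation and Benjamini-Hochberg adjustment over 15226 genes, at 0.05. Standard errors were taken from the F statistic. Log2 CPM used a prior count of 0.5. The script was tested on simulated data. Correlations used permutation tests (100000 resamples, two-sided, or exact for up to 9 libraries). Libraries of a group were compared in pairs (chi-square over degrees of freedom 17.5 to 89.5), and no pair was within sampling noise. Alternatives were RLE and total scaling, DESeq2 1.42.0, no filter, each library left out, the replicate block, marker covariates and the 2 groups alone.

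The members and lists were chosen with earlier results of these data known. The rule for named genes took the members, Cited4, Cebpe, Ddit3 and Cebpz. From the lists it took genes past the threshold, or up to 3 with the smallest p. For each member it took the 5 genes with the highest r, and the 3 with the highest r after group means were subtracted.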

Additional observations from a re-analysis of the deposited data

Results flagged for a closer look

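The Cebpa difference between treatment labels had opposite signs in Flox and KO, and neither passed in edgeR. It was 0.56 ± 0.22 in Flox (adjusted p = 0.593), smaller without Flox labelled exercise 2, and -1.10 ± 0.21 in KO (adjusted p = 0.109). All 3 Flox libraries labelled exercise lay above the Flox libraries labelled sedentary, the closest at 6.78 against 6.45 CPM. All 3 KO libraries labelled exercise lay below the KO libraries labelled sedentary. Values did not overlap for 14.1% of all tested genes in the Flox comparison and 13.1% in the KO comparison. The interaction was -1.66 on the log2 scale and did not pass over all genes in edgeR (adjusted p = 0.279). It passed in DESeq2 (adjusted p = 0.00217) and in edgeR without a filter on low counts (adjusted p = 0.0403), and its adjusted p over all alternatives ran from 0.00217 to 0.847.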

How the results depend on the processing

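The 4 C/EBP members kept their direction and their side of the threshold in 506 of 548 refits, with 27 turned in sign, 9 that came to pass and 6 that no longer passed. Most turns were of differences near 0. The rise of Cebpa in KO under the sedentary label kept its direction in all 20 alternatives. It missed the threshold with the atrial (1.14) or adipocyte (1.80) marker mean as covariate and in 4 of 12 refits without 1 library, which gave 1.31 to 1.57. Cebpa passed for exercise in KO with DESeq2 (-1.10) and without a low-count filter (-1.11), for the interaction with the same settings (-1.66 and -1.67), and for the genotype average with both (0.65 and 0.65). Leaving out 1 library gave -1.19 to -0.93 for exercise in KO, passing without Flox labelled exercise 2 or KO labelled sedentary 1, and 0.56 to 0.81 for the genotype average, passing without Flox labelled exercise 2. The cause was not tested. Scaling by library totals moved the median of all genes to 0.18 for KO under the sedentary label, -0.15 for exercise in KO, -0.16 for the interaction and 0.10 for the genotype average. With it Cebpb (-0.090) and Cebpg (-0.065) turned in sign for exercise in KO, and Cebpg for the genotype average (0.10). With the adipocyte covariate signs turned for Cebpg under the sedentary label (-0.12) and in the interaction (0.035), Cebpd under the exercise label (0.035) and in the exercise average (-0.15), and Cebpb in the genotype average (-0.31). The same covariate turned Ddit3 under the sedentary label (-0.81), Cebpz for exercise in Flox (0.022) and Cidec for exercise in KO (0.14), and the atrial covariate turned Cebpg under the sedentary label (-0.016). Leaving out 1 library at a time gave ranges through 0. For exercise in KO, Cebpb ran from -0.19 to 0.32. Under the sedentary label Cebpb ran from -0.53 to 0.0048, Cebpg from -0.073 to 0.12, Ddit3 from -0.078 to 0.22 and Cebpz from -0.0098 to 0.18. Under the exercise label Cebpa ran from -0.36 to 0.16, Cebpd from -0.29 to 0.30 and Cebpg from -0.10 to 0.010. The Cebpg interaction ran from -0.18 to 0.012. In the genotype average Cebpb ran from -0.057 to 0.21 and Cebpg from -0.067 to 0.029, and in the exercise average Cebpd from -0.11 to 0.22. For exercise in Flox, Ddit3 ran from -0.26 to 0.059 and Cebpz from -0.10 to 0.091.

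Correlations moved more. Cebpa with Cebpb was 0.144 with library totals, 0.341 with group means subtracted and 0.161 without the 2 farthest libraries, and ran from -0.226 to 0.190 without 1 library. Cebpa with Cebpg was 0.469, 0.553 and 0.431 with library totals, without the 2 farthest libraries and outside KO labelled sedentary, and ran from -0.249 to 0.183 without 1 library. Cebpb with Cebpd was 0.657 with group means subtracted, -0.00502 without the 2 farthest libraries and -0.0311 outside KO labelled sedentary. Cebpb with Cebpg was 0.503, -0.316 and -0.400 in the same order and ran from -0.249 to 0.306 without 1 library. Cebpd with Cebpg reached 0.753 with library totals (permutation, adjusted p = 0.0136). Cebpa with Cebpd ran from 0.594 to 0.926 without 1 library. In Flox hearts, leaving out 1 library gave -0.317 to 0.650 for Cited4 with Cebpa and -0.339 to 0.0609 with Cebpd. Lower values came without the 2 farthest libraries (-0.451 and -0.431) and with group means subtracted (-0.779 and -0.904).

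The number of genes called under the sedentary label ran from 0 to 479 against 19. It was 370 with DESeq2, 120 without a filter, 100 with library totals, 39 with the 2 groups alone. Leaving out KO labelled sedentary 1 gave 479 and leaving out Flox labelled sedentary 2 gave 2. For exercise in KO it ran from 0 to 566 against 3, for the genotype average from 1 to 160 against 8, for the exercise average from 0 to 47 against 4, and for KO under the exercise label from 1 to 10 against 1. For exercise in Flox and the interaction it was at most 45 and 47 against 0. Of the adipocyte list 0 to 7 genes were called higher against 4. With the replicate block the Cebpa difference was 1.48 (adjusted p = 0.0246), 37 genes were called under the sedentary label, and no call of a member changed. The numbers did not pair the samples: same-numbered libraries had correlations of -0.313 to 0.295 over 18 pairs, and 5 of 12 libraries were closest to one of their own number. Cebpa rested on as few as 107 counts per library.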
